A study of Homo sapiens with 6 samples.

Results

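The messenger RNAs of 178 zinc-finger genes on human chromosome 19 were followed in pulldowns with the FERRY complex and with the affinity tag alone. The genes were chosen by their symbol, position and raw counts, as protein-coding genes with a symbol of ZNF and a number that lie on chromosome 19 and had at least 10 counts in each of the 6 libraries, which held for 178 of 241 such genes among the 60676 gene IDs of the table. The minimum count was read from the same libraries that are compared here, so the levels and the number of genes present are a description of that choice. RNA was recovered on glutathione resin from a lysate of HEK 293, a line derived from human embryonic kidney that was kept in suspension. GST-Ferry, the complex fused to glutathione S-transferase, was the bait in 3 libraries, and GST alone was the bait in the other 3. FERRY is a complex of the early endosome that binds the GTPase RAB5 and messenger RNA. The columns of the table say control and sample, and sample was read as GST-Ferry and control as GST from the words alone. No library of unbound lysate RNA was analysed here, and a value is therefore a share of a library, not an amount of RNA bound.

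Most zinc-finger genes of chromosome 19 encode transcription factors that read DNA with a row of C2H2 fingers, small folds in which a pair of cysteines and a pair of histidines hold a zinc ion. Many carry a KRAB domain at the other end, which recruits the corepressor TRIM28 and, through it, the histone methyltransferase SETDB1 and heterochromatin proteins. They arose by repeated tandem duplication, lie in clusters, and are known above all for silencing transposable elements. By a pattern search in the GENCODE 29 coding sequences, the 178 genes had a median of 12 fingers, between 0 in ZNF738 and 31 in ZNF91. A KRAB pattern was found in 141 of them. This is a looser pattern, chosen after seeing which sequences a stricter one, found in 121, had missed.

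The finger is the part that all but 1 of these genes share, and its sequence also shows how they differ. A unit is the first finger in a protein that matched a stricter pattern ending in the linker TGEKP, so other fingers may precede it. Units are given below for the 2 genes with the highest and the 3 with the lowest fold changes among the 148 members that hold one. The same protein fold is written there with very different base composition. Capitals mark the codons of the 4 residues that bind zinc, and each sequence runs 5′ to 3′ in the sense of the mRNA, from the GENCODE 29 transcripts.
ZNF865: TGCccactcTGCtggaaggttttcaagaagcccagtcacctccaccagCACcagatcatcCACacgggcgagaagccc
ZNF787: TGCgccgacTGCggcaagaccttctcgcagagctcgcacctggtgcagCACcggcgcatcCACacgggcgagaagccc
ZNF461: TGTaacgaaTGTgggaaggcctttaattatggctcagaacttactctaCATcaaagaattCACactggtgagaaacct
ZNF682: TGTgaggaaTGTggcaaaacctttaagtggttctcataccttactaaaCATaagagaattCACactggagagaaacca
ZNF493: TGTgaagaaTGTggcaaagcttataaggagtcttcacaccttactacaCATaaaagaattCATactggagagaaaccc
The last base of the codon was G or C in 23 of 26 codons of the ZNF865 unit and in 26 of 26 of the ZNF787 unit, against 7 of 26 in ZNF461, 10 of 26 in ZNF682 and 6 of 26 in ZNF493. ZNF865 and ZNF787 had higher CPM with GST-Ferry than with GST, and ZNF461, ZNF682 and ZNF493 had lower CPM. These directions follow from the choice of the units by fold change. On GRCh38, ZNF865 lies on the plus strand of chromosome 19 from 55605405 to 55617269, ZNF787 on the minus strand from 56087366 to 56121280, ZNF461 on the minus strand from 36637192 to 36666853, ZNF682 on the minus strand from 19997058 to 20039506 and ZNF493 on the plus strand from 21397119 to 21427573.

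The libraries held 6532665, 2671831 and 2454538 counts for GST-Ferry 1, 2 and 3, against 9388865, 10466520 and 7390346 for GST 1, 2 and 3. A floor of 3 counts came to between 0.439 and 1.30 CPM in the GST-Ferry libraries and between 0.273 and 0.442 CPM in the GST libraries, for counting error only. CPM are counts per 1000000 of the scaled total of a library. GST 3 stands apart from the other GST libraries in base composition, and values that move by over 1.5 times without it are given both ways for the members named. Reads of the 178 mRNAs made up 0.605%, 0.500% and 0.500% of GST-Ferry 1, 2 and 3, against 0.615%, 0.595% and 0.614% for GST 1, 2 and 3. The GST-Ferry 1 share lay inside the range of the GST libraries. All 9 marker genes listed for HEK 293 passed the filter on low counts, but their levels were not all alike between the baits. KRT18 was higher with GST-Ferry (log2 fold change 1.18 ± 0.22 SE, adjusted p = 0.0427 by edgeR's quasi-likelihood test). In that test 0.592% of all tested genes were higher at an adjusted p under 0.05. EYA1 alone among these markers had a fold change below 0 (-0.22 ± 0.24). Of 5 markers of other cells, CD3E and HBB were at 0 in every library, PTPRC had counts in GST 3 alone (0.295 CPM), and ALB reached at most 0.398 CPM. The fibroblast marker COL1A1 passed the filter, at 53.6 CPM with GST-Ferry and 33.8 CPM with GST; its part in the values of the members was not tested.

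No member of the family passed the test between the baits. In the quasi-likelihood test of edgeR, with p-values adjusted by Benjamini-Hochberg over 15546 genes, 0 of 178 were lower with GST-Ferry, against 0.0322% of all tested genes, and 0 were higher, against 0.592%. The smallest adjusted p among the members was 0.103. At an unadjusted p under 0.05, 12 members were lower and 8 were higher, against 8.05% and 11.3% of all tested genes. DESeq2 called 0 lower and 2 higher (ZNF428 and ZNF865), against 1.14% and 3.43% of all tested genes, and limma-voom called 0 in either direction. Without GST 3, edgeR called ZNF649 and ZNF738 lower and ZNF358 higher, against 3.54% and 4.45% of all genes tested then.

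As a group the mRNAs had a median fold change slightly below 0. A fold change below 0 was found for 120 of 178 members (67.4%), against 52.2% of all tested genes, and above 0 for 58, against 47.8%. The median log2 fold change was -0.14, against -0.03 for all tested genes. All members are protein-coding. Of the 12864 tested protein-coding genes 48.0% had a fold change below 0, and their median log2 fold change was 0.02. By library, the median over members of log2 CPM minus the GST mean of each gene was -0.01, -0.14 and -0.17 in GST-Ferry 1, 2 and 3, against -0.07, -0.05 and 0.11 in GST 1, 2 and 3. GST-Ferry 1 lay between the GST libraries, so the groups overlapped. The SD of this median within a bait was 0.09. Without GST 3 the median log2 fold change of the members was -0.06. The groups did not overlap for 22 members with less RNA on GST-Ferry, against 12.2% of all tested genes, and for 13 members with more, against 14.9%. As shares of the members these counts are 12.4% and 7.30%, so the share on the lower side lay at the background. Among tested protein-coding genes the shares were 11.4% lower and 17.4% higher.

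The lowest fold changes belonged to mRNAs of 8 genes with transcripts of 34.2% to 41.7% GC. ZNF461 had 12.6, 5.17 and 9.57 CPM in GST-Ferry 1, 2 and 3, against 15.3, 16.4 and 19.4 CPM in GST 1, 2 and 3. Its log2 fold change was -0.84 ± 0.30 (SE; adjusted p = 0.168 by edgeR's quasi-likelihood test). The groups did not overlap, with GST-Ferry 2 lowest and GST-Ferry 1 close to GST 1. ZNF682, a KRAB-pattern gene just inside the count minimum, had 6.44, 5.97 and 4.78 CPM with GST-Ferry, against 7.39, 9.66 and 12.5 CPM with GST (log2 fold change -0.75 ± 0.31). ZNF493 had 35.4, 19.1 and 21.3 CPM with GST-Ferry, against 37.3, 47.7 and 43.9 CPM with GST (-0.73 ± 0.25). The groups did not overlap in either case, and for both genes GST-Ferry 1 and GST 1 were neighbours. ZNF738, whose longest GENCODE 29 protein has the KRAB pattern and 0 fingers, had 29.3, 22.3 and 23.9 CPM with GST-Ferry, against 39.8, 49.6 and 34.9 CPM with GST (-0.71 ± 0.22, adjusted p = 0.127 by edgeR's quasi-likelihood test). ZNF566 and ZNF573 also had groups without overlap, at -0.61 ± 0.24 and -0.57 ± 0.22. Without GST 3 the value of ZNF566 was -0.37. ZNF649, a KRAB repressor whose domain neither pattern recognises, overlapped: it had 20.8, 19.9 and 25.2 CPM with GST-Ferry, against 34.9, 39.9 and 24.3 CPM with GST, so GST 3 sat among the GST-Ferry libraries. ZNF345 overlapped in the same way, with a log2 fold change of -0.57 ± 0.27. The span of ZNF649 overlaps that of ZNF577 on the same strand. The span of ZNF345 overlaps RPL31P61 on the same strand and ZNF790 and ZNF829 on the other. ZNF493 overlaps a gene without a symbol on the same strand, and ZNF682, ZNF566 and ZNF573 overlap genes on the other strand. In these cases the split of reads between the genes is uncertain.

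The highest fold changes belonged to 6 genes with no KRAB pattern and transcripts of 61.3% to 71.1% GC. ZNF865, with 20 fingers, had 27.9, 28.6 and 39.6 CPM in GST-Ferry 1, 2 and 3, against 22.0, 15.1 and 8.54 CPM in GST 1, 2 and 3. Its log2 fold change was 1.05 ± 0.31 (SE; adjusted p = 0.111 by edgeR's quasi-likelihood test). All GST-Ferry libraries lay above all GST libraries, and the GST libraries differed among themselves by more than the gap between the groups. ZNF428, with 1 finger, had 41.1, 58.9 and 66.1 CPM with GST-Ferry, against 35.8, 33.0 and 20.3 CPM with GST (0.88 ± 0.26). Its span overlaps that of SRRM5 on the other strand. ZNF628 had 13.6, 13.5 and 16.1 CPM with GST-Ferry, against 10.3, 8.20 and 5.75 CPM with GST (0.81 ± 0.28). For all 3 genes GST 3 was the lowest library. ZNF358 was the most even of these genes, with 26.6, 28.2 and 27.4 CPM with GST-Ferry, against 18.5, 14.6 and 15.6 CPM with GST. Its log2 fold change was 0.75 ± 0.22, with the smallest adjusted p of the family (0.103 by edgeR's quasi-likelihood test), and here GST 3 was not the lowest library. ZNF787 had 45.4, 41.8 and 39.1 CPM with GST-Ferry, against 32.0, 27.3 and 19.6 CPM with GST (0.68 ± 0.22). ZNF579 overlapped by a narrow margin, since GST-Ferry 2 stood at 27.0 CPM and GST 1 at 27.1 CPM, and had a log2 fold change of 0.78 ± 0.34. That value was 0.43 without GST 3 and 1.202 without GST 1.

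**Figure D1:**
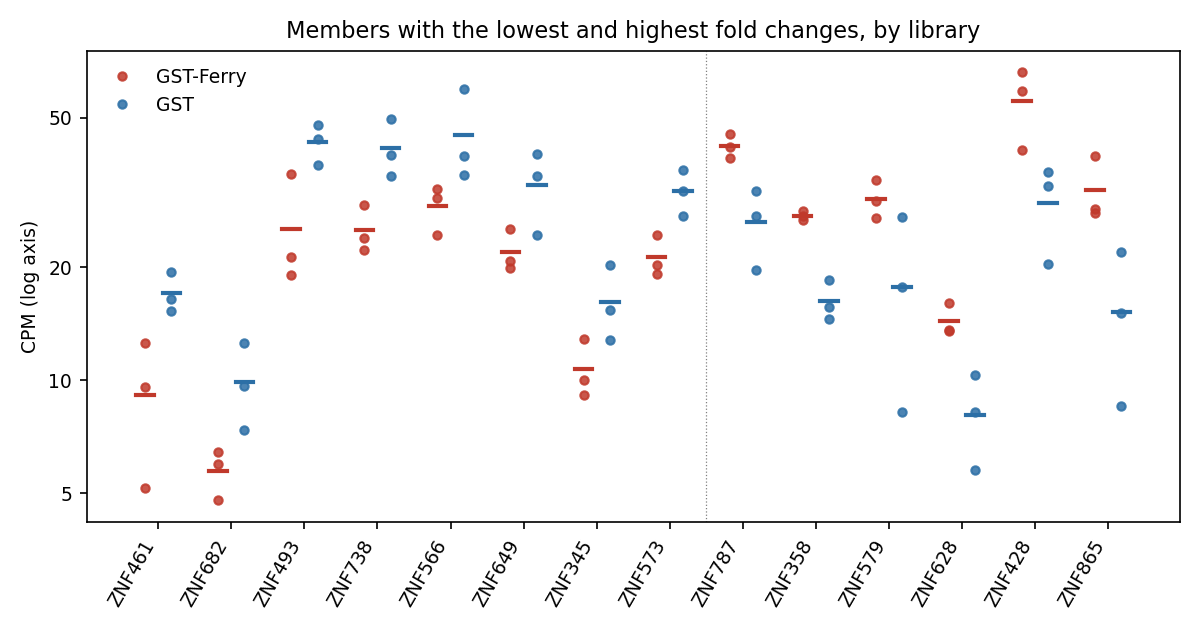
CPM on a log axis for the 8 members with the lowest and the 6 with the highest log2 fold changes, with GST-Ferry libraries (red) left of GST libraries (blue); each point is 1 library and each bar the mean of 3. ZNF649 and ZNF345 on the low side and ZNF579 on the high side have overlapping groups, and the other genes do not.

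The fold change of a member followed the GC content of its transcript. Across the 178 genes Pearson's r was 0.75 and Spearman's rho 0.59, as a description, since genes share the libraries and are not independent replicates. Over the 152 members below 50% GC, r was lower at 0.46 and rho was 0.41. A relation of the same sign was found over all 12859 tested protein-coding genes with a transcript sequence, at r = 0.55 and rho = 0.59. Of the 24 members under 38% GC, 23 had a fold change below 0 and the median was -0.38 on the log2 scale; ZNF675 was the exception at 0.12. The 1174 other tested genes in that range had a median of -0.41, with 88.8% below 0. Of the 19 members at 55% GC or more, 18 had a fold change above 0 and the median was 0.48; ZNF536, known to restrain neuronal differentiation, was the exception at -0.22. The 4491 other tested genes at 55% or more had a median of 0.31, with 23.8% below 0. Between these ends, medians of the members were -0.16 from 38% to 42% GC, -0.18 from 42% to 46%, 0.05 from 46% to 50% and 0.03 from 50% to 55%. Other tested genes had medians of -0.28, -0.16, -0.04 and 0.11 in the same ranges. The limits of these ranges were set after the values were seen.

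**Figure D2:**
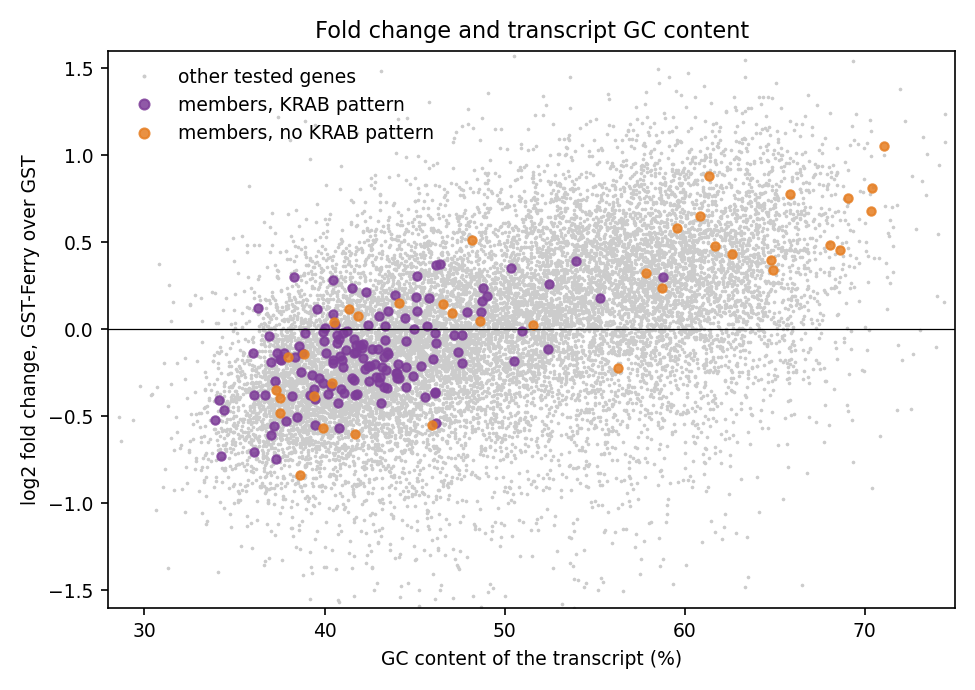
Log2 fold change of GST-Ferry over GST against the GC content of the transcript, for members with the KRAB pattern (purple), members without it (orange) and other tested genes (grey); values beyond 1.6 on either side are not drawn. Points lie higher towards high GC content, with r = 0.75 over 178 members and 0.55 over all tested protein-coding genes.

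The difference by GC content was smaller without 1 of the GST libraries. Members at 55% GC or more lay at 0.44, 0.67 and 0.57 in GST-Ferry 1, 2 and 3 (median log2 CPM minus the GST mean), against 0.24, 0.17 and -0.43 in GST 1, 2 and 3. Members under 38% GC lay at -0.21, -0.42 and -0.42 in the GST-Ferry libraries, against -0.19, -0.14 and 0.33 in the GST libraries. The groups did not overlap in either set, but GST 1 and GST 2 were closer to GST-Ferry than to GST 3. Without GST 3 the median log2 fold change was 0.33 for the members at 55% GC or more and -0.17 for those under 38%, with 17 of 19 above 0 and 21 of 24 below 0. The other tested genes at 55% GC or more lay at 0.30, 0.28 and 0.43 in GST-Ferry 1, 2 and 3 against 0.19, 0.20 and -0.40 in GST 1, 2 and 3. Offsets that remove a smooth curve in GC content and transcript length, fitted over all genes, were also used. With them, the members highest in the main test had log2 fold changes of 0.57 for ZNF865, 0.57 for ZNF428, 0.31 for ZNF628, 0.44 for ZNF579, 0.22 for ZNF358 and 0.16 for ZNF787. The members lowest in the main test had -0.55 for ZNF461, -0.42 for ZNF682, -0.38 for ZNF493, -0.41 for ZNF738, -0.25 for ZNF566, -0.43 for ZNF649, -0.36 for ZNF345 and -0.33 for ZNF573. Each of these 14 values lay closer to 0 than without the offsets and kept its sign. Among the characterised members, ZNF473 (0.54), ZNF146 (0.32) and ZNF274 (-0.19) lay further from 0 with the offsets, and the others lay closer.

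**Figure D3:**
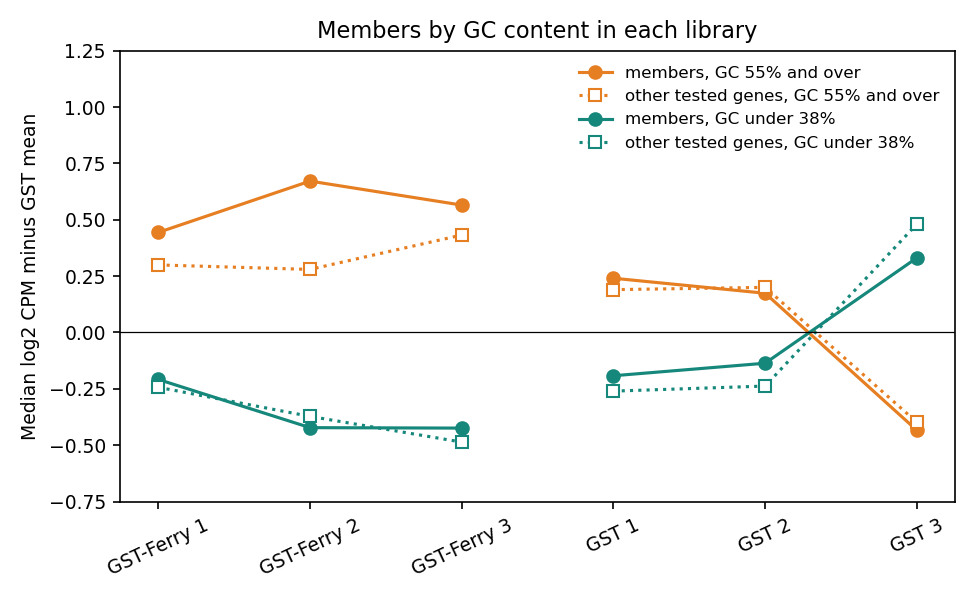
Median over genes of log2 CPM minus the GST mean of each gene, by library, for members (filled circles) and other tested genes (open squares) at 55% GC or more (orange) and under 38% GC (green). GST 3 lies at -0.43 for the members rich in GC and at 0.33 for the members poor in GC, on the far side of every other library.

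Genes with the KRAB pattern and genes without it differed in fold change, and they differed in GC content too. Of the 141 members with the pattern 108 lay below 0, at a median log2 fold change of -0.16, and of the 37 members without it 12 were below 0, with a median of 0.15. Median GC content was 42.1% with the pattern and 48.6% without it. Below 50% GC the medians were -0.17 for 133 genes with the pattern and -0.16 for 19 genes without it. At 55% GC or more, 17 of 19 members lacked the pattern, and their median was 0.49. The log2 fold changes of the 37 genes without the pattern spanned from -0.84 in ZNF461 to 1.05 in ZNF865. The stricter pattern, which requires a tryptophan that the looser one does not, was found in 121 members (median -0.17) and not in 57 (median 0.03). A missing pattern does not show that the domain is missing. Members with few fingers differed from the rest: with 0 to 7 fingers 10 of 25 lay below 0 (median log2 fold change 0.16), against 49 of 66 with 8 to 12 (-0.20), 42 of 62 with 13 to 17 (-0.10) and 19 of 25 with 18 or more (-0.14). The median GC content of these groups was 51.6%, 42.2%, 41.9% and 41.1%, and the linear correlation with the number of fingers was r = -0.08 over 178 genes. For the mean CPM on a log scale r was -0.11. Transcript length on a log scale had r = -0.33, against -0.28 over all tested protein-coding genes, and below 50% GC it had r = -0.12 over 152 members. Among parts of the sequence, r was 0.71 for the GC content of the coding sequence, 0.66 for the last codon positions and 0.65 for the 3′ untranslated region of the 165 members with a value. For the bases around the start of the gene in RefSeq it was 0.36 over 160 matched members.

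Of the 6 members with the highest mean CPM, 5 had a fold change below 0, and ZNF146 lay above it. Per kilobase of transcript, ZNF460 had the highest level at 71.2 CPM per kb, followed by ZNF146 at 54.0 and ZNF121 at 30.2, as means over the 6 libraries. ZNF460 had 226, 198 and 200 CPM in GST-Ferry 1, 2 and 3, against 228, 271 and 309 CPM in GST 1, 2 and 3, so that GST-Ferry 1 and GST 1 were almost equal. Its log2 fold change was -0.37 ± 0.19. ZNF146, a protein that consists of fingers alone, had 205, 210 and 222 CPM with GST-Ferry, against 200, 199 and 188 CPM with GST (0.12 ± 0.18). Its groups did not overlap, although the fold change was small. The log2 fold change of ZNF146 was 0.06 without GST 3, and also 0.06 when GST-Ferry 3 was left out instead. ZNF121 had 230, 177 and 172 CPM with GST-Ferry, against 209, 172 and 338 CPM with GST, where GST 3 was the highest library and the groups overlapped. Its log2 fold change was -0.31, and -0.0040 without GST 3. GST 3 was also the highest for ZNF714, at 109, 92.3 and 102 CPM with GST-Ferry against 107, 101 and 193 CPM with GST, with a log2 fold change of -0.40, and of -0.06 without GST 3. ZNF587 had a log2 fold change of -0.27, which was 0.01 without GST 3. ZNF507 had a log2 fold change of -0.38 ± 0.22, with its highest level in GST 3, and of -0.19 without that library.

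Members with a described role showed no common direction past the test. ZNF91, which represses SVA elements, had 95.7, 67.6 and 69.2 CPM in GST-Ferry 1, 2 and 3, against 91.7, 81.3 and 94.0 CPM in GST 1, 2 and 3 (log2 fold change -0.19 ± 0.20, and -0.37 without GST-Ferry 1). Its relative ZNF93, which represses LINE-1 elements, had at most 4 counts in any library and was not a member. ZNF274, which brings SETDB1 to the ends of other zinc-finger genes, had 59.4, 62.1 and 57.0 CPM with GST-Ferry, against 67.9, 79.1 and 45.7 CPM with GST, and its groups overlapped (-0.11 ± 0.22, and -0.33 without GST 3). ZNF331, an imprinted gene, had a log2 fold change of -0.36 ± 0.22. ZNF224, a KRAB repressor first described on the aldolase A gene, had 42.4, 45.4 and 36.1 CPM with GST-Ferry, against 48.1, 66.2 and 46.3 CPM with GST (-0.37 ± 0.21). For ZNF224 the groups did not overlap, and the value was -0.21 without GST 2. ZNF382, a KRAB repressor, had a log2 fold change of -0.29 ± 0.23, and of -0.55 without GST-Ferry 1. On the other side, ZNF473 acts with the U7 snRNP in processing the ends of histone mRNAs, and it had 48.3, 87.1 and 74.8 CPM with GST-Ferry, against 40.1, 49.8 and 56.1 CPM with GST. GST-Ferry 1 lay among the GST libraries there (0.51 ± 0.24, adjusted p = 0.264 by edgeR's quasi-likelihood test; 0.29 without GST-Ferry 2). ZNF444, a SCAN domain protein, had a log2 fold change of 0.45 ± 0.22.

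Position on the chromosome went with GC content at the extremes, but not in strict order between them. A cluster was taken to end where the next ZNF gene started more than 1000000 bases away, and 8 clusters held at least 5 members. In the cluster from 19668796 to 24129961, where ZNF91 and ZNF714 lie, 17 of 20 members lay below 0, with a median of -0.38 on the log2 scale and a median GC content of 37.2%. The cluster from 36214602 to 37817300, where ZNF146 and ZNF461 lie, had 18 of 22 below 0 (median -0.32, GC 39.1%). In the cluster from 51571298 to 53580269, with ZNF331, 25 of 28 members were below 0 (median -0.18, GC 41.1%). The cluster from 11559374 to 12640098, with ZNF791 as its most abundant member at a log2 fold change of -0.21 ± 0.19, had 13 of 14 below 0 (median -0.13, GC 42.4%). The cluster from 7069444 to 9793180, with ZNF121, had 9 of 12 below 0 (median -0.25, GC 43.7%). The small one from 34677639 to 34964049, with ZNF302, had 3 of 5 below 0 (median -0.18, GC 43.4%). Around ZNF224, from 43596392 to 45076588, 10 of 19 members were below 0 (median -0.08, GC 42.9%). At the end of the long arm, from 55476332 to 58481230, 20 of 47 were below 0, with a median of 0.10 and a GC content of 46.4%. That last cluster holds ZNF865, ZNF628, ZNF579 and ZNF787.

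**Figure D4:**
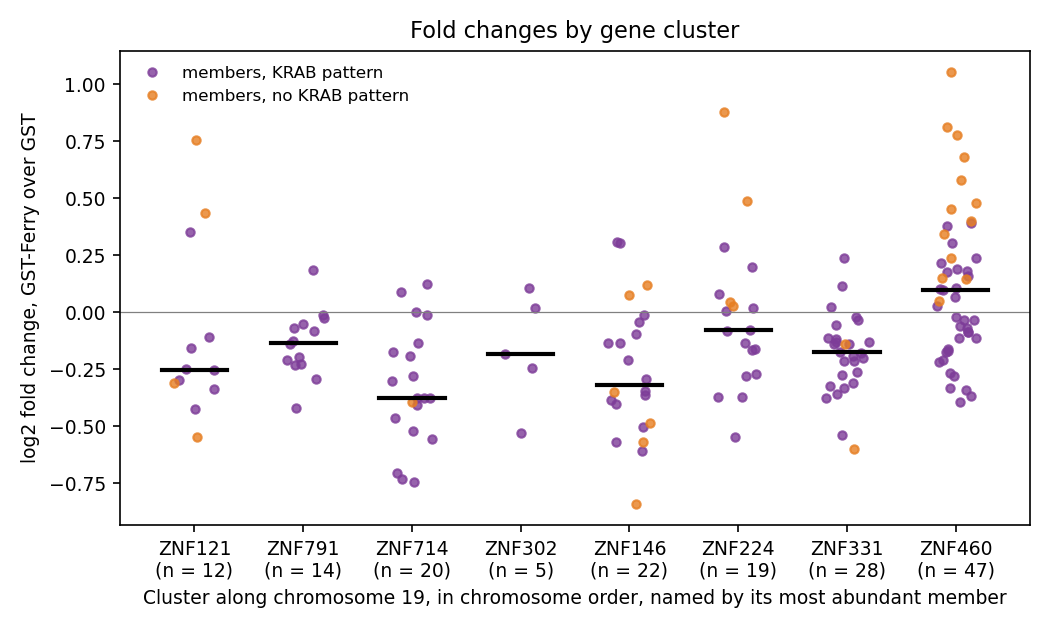
Log2 fold change of GST-Ferry over GST for the members of the 8 clusters with at least 5 members, in chromosome order, with members with the KRAB pattern in purple and members without it in orange; black bars are medians. The medians run from -0.38 in the cluster of ZNF714 to 0.10 in the cluster of ZNF460.

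Zinc-finger genes on other chromosomes also had lower fold changes at low GC content. Off chromosome 19, 128 of 215 tested ZNF genes lay below 0; their median log2 fold change was -0.08, their median GC content 45.7%, and their r with GC content was 0.71. Of their 23 genes under 38% GC 22 were below 0 (median -0.36), and of their 50 genes at 55% or more 44 were above 0 (median 0.40). Between these ends the medians were -0.27, -0.20, -0.04 and 0.07 in the 4 ranges from 38% to 55%; the difference from the members was not tested. Protein-coding genes of chromosome 19 that are not zinc-finger genes by symbol lay on the other side. They were taken from the whole chromosome, whatever their distance from the members. Of 691 other tested protein-coding genes of this chromosome 127 lay below 0 (18.4%). Their median log2 fold change was 0.39 and their median GC content 60.9%. Of these 691 genes 14 were called higher, against 0.592% of all tested genes. Among the 4491 tested genes at 55% GC or more that are not members, 63 were called higher. Members and these other genes of the chromosome thus had medians of opposite sign, a difference that was not tested.

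Of the partners through which KRAB proteins act, 0 of 26 passed the test in either direction, and 16 had a fold change above 0 (median log2 fold change 0.16; unadjusted p under 0.05 by edgeR's quasi-likelihood test for 2 lower and 6 higher). Of all tested genes 47.8% had a fold change above 0, and 8.05% and 11.3% were lower and higher at that unadjusted p. TRIM28, the KRAB corepressor, had 860 ± 105 CPM with GST-Ferry and 496 ± 94.9 CPM with GST (mean ± SD, n = 3 each), without overlap, a log2 fold change of 0.79 ± 0.21 (SE; adjusted p = 0.0906 by edgeR's quasi-likelihood test). Its transcript is 63.7% GC. SETDB1 had 149 ± 16.6 CPM with GST-Ferry and 148 ± 24.7 CPM with GST (0.01 ± 0.20). The histone-binding protein RBBP7 was the most abundant of the list and had the highest fold change, 0.81 ± 0.25, with 1497 ± 422 CPM with GST-Ferry and 851 ± 164 CPM with GST. RBBP4 had 641 ± 143 CPM with GST-Ferry and 504 ± 125 CPM with GST. ATRX, a chromatin remodeller with a transcript of 36.8% GC, had the lowest fold change, -0.45 ± 0.19, with 206 ± 6.94 CPM with GST-Ferry and 282 ± 32.9 CPM with GST. Of 4 tested nuclear-retained lncRNAs 0 were called, 3 had a fold change below 0, and MALAT1 had 7112 ± 672 CPM with GST-Ferry and 10838 ± 154 CPM with GST, without overlap (-0.61 ± 0.23). In that list NEAT1 had -0.02 ± 0.22, KCNQ1OT1 0.09 ± 0.23 and TUG1 -0.35 ± 0.20. Whether nuclear RNA had a part in the values of the members was not tested.

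The minimum of 10 counts sat in the shallow libraries. The lowest count of a member was in GST-Ferry 2 or GST-Ferry 3 for 175 of 178 members, so a gene scarce in those libraries could not enter. Just inside the limit were ZNF681, ZNF563 and ZNF233 with a lowest count of 10 and ZNF682 with 11, at log2 fold changes of -0.52, -0.23, 0.08 and -0.75. Just outside it were ZNF284, ZNF497 and ZNF613 with 8 and ZNF653 with 9, at -0.45, 0.38, -0.68 and 0.02. Of the 63 genes that missed the limit 7 were at 0 in every library and 21 had enough counts to be tested, of which 0 were called. With these added, 133 of 199 genes lay below 0 and the median log2 fold change was -0.13. Of the 178 members 69 overlap another gene on the same strand and 91 on the other strand, and 55 overlap none.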

How the data were processed

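The authors deposited 1 table of raw read counts per Ensembl gene for 6 libraries. GRCh38.p13, STAR 2.5.2b and bcl2fastq 2.19.1 are named, per the submitters' processing notes, and per the labels' protocols ribosomal RNA was depleted and libraries were strand-specific. The counting program, annotation release, strand setting and handling of reads with several matches are not given in the sources used here. Counts of overlapping genes and of near-identical fingers are therefore uncertain.

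Symbols came from a table of gene names, and types, GRCh38 coordinates and transcripts from GENCODE 29, whose patch level may differ from that of the authors. For GC content and length, the longest protein-coding transcript of the basic set was used. Fingers were counted as a cysteine pair 2 to 4 residues apart, 12 residues, and a histidine pair 3 to 5 residues apart. Genes were filtered with filterByExpr (minimum count 10, minimum total 15) and scaled with TMM. They were tested with edgeR 4.0.16 (R 4.3.3), with no covariate, two-sided, at an adjusted p of 0.05. The procedure was tested on simulated counts that held no difference in base composition between libraries. CPM use the TMM-scaled totals, and SE is the log2 fold change divided by the square root of F.

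Named members are the 8 lowest and 6 highest fold changes, the 6 highest mean CPM, the most abundant of each cluster of at least 5, and 10 characterised genes. ZNF675, ZNF536 and the genes beside the count limit were named after their values were seen. The members and lists were chosen with earlier results of these data known. No label says that replicates are separate cultures: the p-values reflect the spread of these libraries alone, and it may be technical. Between libraries of 1 bait, chi-square over its degrees of freedom was 4.88 to 57.9, above counting noise. Alternatives were run with DESeq2 1.42.0, limma 3.58.1 and mgcv 1.9.3; figures used matplotlib 3.10.9.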

Additional observations from a re-analysis of the deposited data

How the results depend on the processing

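The median log2 fold change of the members (-0.14) kept its sign in all alternatives but 1, from -0.19 to -0.11 with all libraries and from -0.19 to -0.06 with 1 library left out. With offsets that remove by construction what follows a smooth curve in GC content and transcript length, it was 0.049, members below 0 were 74 instead of 120, members under 38% GC below 0 were 12 instead of 23, and members with the KRAB pattern below 0 were 61 instead of 108. ZNF302 (0.046), ZNF91 (0.12) and ZNF444 (-0.061) changed sign under these offsets, ZNF274 (0.044) without GST 2 and ZNF587 (0.0068) without GST 3; with 1 library left out, ZNF274 lay between -0.33 and 0.044 and ZNF587 between -0.44 and 0.0068. Members called lower numbered 0 in the main test and between 0 and 2 with 1 library left out, and members called higher between 0 and 1. The calls came without GST 3 (ZNF649 and ZNF738 lower, ZNF358 higher; 3.54% and 4.45% of all genes). Without GST 3 and GST-Ferry 1 together 8 members were called lower and 6 higher, against 6.51% and 11.5% of all genes. With no filter on low counts 2 were called higher, against 1.29% of the 32648 genes tested then. DESeq2 likewise called 2 higher, against 3.43% of all tested genes. Over all genes, 5 were called lower and 92 higher in the main test, 177 and 534 with DESeq2, 323 and 421 with no filter, 0 and 11 with RLE size factors, 0 and 7 with library sizes alone, 0 and 14 with limma-voom, 44 and 261 with the offsets, and 0 and 0 without GST-Ferry 2. The counts by GC content and KRAB pattern were added after seeing the data. Same-numbered libraries had correlations of 0.25, 0.08 and -0.13 in their deviations, and differently numbered libraries had between -0.26 and 0.18. With so few libraries per bait, these values do not settle whether the numbers pair the samples. With the replicate number as a block 0 members were called, against 28 lower and 167 higher among all genes, and the median was -0.13. The shallow GST-Ferry libraries, with 2454538 and 2671831 counts, limit what can be called for members near 10 counts.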

Other observations

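Among the 21 tested chromosome 19 ZNF genes that missed the count limit, the ends of the range again had very different transcripts. ZNF837, at 70.1% GC, stood at a log2 fold change of 1.07 (adjusted p = 0.232 by edgeR's quasi-likelihood test) and ZNF540, at 39.8% GC, had -0.90 (adjusted p = 0.183 by the same test). ZNF837 had few counts, at 24, 7 and 9 in GST-Ferry 1, 2 and 3, against 23, 19 and 5 in GST 1, 2 and 3. ZNF540 had 38, 8 and 7 counts in GST-Ferry 1, 2 and 3, against 70, 90 and 58 counts in GST 1, 2 and 3. Both genes were chosen after their values were seen.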
